A study of Mus musculus with 6 samples.

Results

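The genes described are 10 members of 2 families that act close to cytokine receptors, namely CISH, SOCS1, SOCS2, SOCS3, SOCS4, SOCS5, SOCS6 and SOCS7 of the suppressor of cytokine signalling (SOCS) family and the kinases PIM1 and PIM3. They were taken by name from a table of 20036 genes, in which each of the 10 names occurred once. RNA was sequenced from THP-1 cells, a single human acute monocytic leukaemia line, which a phorbol ester, PMA (100 ng/ml, 48 h), had turned into macrophage-like cells on the lower side of Transwell inserts. The melittin group (3 libraries) was kept below tumour cells and received melittin, the lytic peptide of bee venom, at 3 µg/ml for 48 h. The comparison group (3 libraries) carries only the label NC, and the sources do not say whether its wells held tumour cells, so melittin and co-culture cannot be told apart. PMA is described for THP-1 cells in general, with no separate account for NC. The labels name no separate cultures within a group, and the p-values below therefore reflect variation among the sequenced libraries alone, possibly of technical origin.

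Cytokine receptors without a kinase of their own signal through Janus kinases (JAKs), which phosphorylate STAT transcription factors. STATs in turn switch on genes whose products restrain the same receptors, and CISH, SOCS1, SOCS2 and SOCS3 are the classical examples of such feedback. Every SOCS protein has an SH2 domain that binds phosphotyrosine and a C-terminal SOCS box, which recruits elongins B and C and cullin 5 so that bound proteins are ubiquitinated. SOCS1 and SOCS3 also block JAKs directly. In macrophages SOCS1 is best known for limiting interferon and Toll-like receptor responses, and SOCS3 for limiting signals through gp130, the receptor chain shared by interleukin-6 and its relatives. PIM kinases are serine/threonine kinases that need no activating phosphorylation, so their activity follows their abundance, and PIM1 is a textbook target of STAT3 and STAT5.

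Total counts were 16001423 to 19597781 per library, and 1 count corresponded to 0.0471 to 0.067 CPM. CPM here are counts scaled to library size with TMM factors, which allow for a few very abundant genes taking up reads. The organism label reads mouse, whereas all 20036 gene identifiers were human. Of 12 macrophage markers, 5 of 10 tested fell, each at least 2-fold, and 3 rose, while with library totals alone 7 fell and 2 rose (median −0.57, and −0.80 with totals alone). Those that fell were CSF1R (722.2 ± 10.2 to 235.1 ± 2.98 CPM), CD14 (173.4 ± 2.19 to 81.2 ± 5.87 CPM), PTPRC, LYZ and CD163, and those that rose were ITGAM, ITGAX and TYROBP. The summed level of the macrophage markers ran from 2068 to 2090 CPM in NC and from 1721 to 1743 CPM in melittin libraries. CD68 had 1 count in all 6 libraries together. Of 10 epithelial and prostate markers, EPCAM, KRT18, KRT19, KLK2 and TMPRSS2 were at 0 counts and KLK3 had 2 counts, both with melittin. The part of other cell types in the results below was not tested. T and B lymphocyte markers stayed at or under 1.07 CPM in sum. Fibroblast markers summed to 57.7 to 58.5 CPM in NC and 48.3 to 51.2 CPM in melittin libraries. In RNA from whole wells a smaller number of cells that express a gene and less of its RNA per cell cannot be told apart.

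With melittin the inducible SOCS genes and both PIM kinases were higher, and 3 of the 4 longer SOCS genes were slightly lower. Of the 10 members 9 could be tested, and 6 rose (CISH, SOCS1, SOCS3, SOCS7, PIM1 and PIM3) while 3 fell (SOCS4, SOCS5 and SOCS6), by edgeR's quasi-likelihood test with Benjamini-Hochberg adjustment over all 12029 tested genes and a threshold of 0.05. This stands against a background in which 76.4% of all tested genes passed, 38.1% as higher and 38.3% as lower, so that passing the test does not set the members apart. By size, 5 of the 9 rose at least 2-fold, where 9.53% of tested genes did so, and 0 of the 9 fell as far, where 9.96% did. The median log2 fold change of the 9 was 1.19, and that of all tested genes −0.007. SOCS1 came through the filter on low counts only by its melittin libraries, so a difference was required of it. The CPM of the 2 groups did not overlap in 9 of the 10 members, 7 with melittin higher and 2 with melittin lower, against 77.4% of tested genes (38.3% higher, 39.1% lower). The 7 include SOCS2, which was not tested, whereas the shares are over tested genes only. Scaling by library totals alone moved the median of all genes to −0.24, with 26.3% of genes higher and 51.9% lower (78.2% in all), and 5 members rose and 3 fell. SOCS7 was the member that no longer passed.

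**Figure D1:**
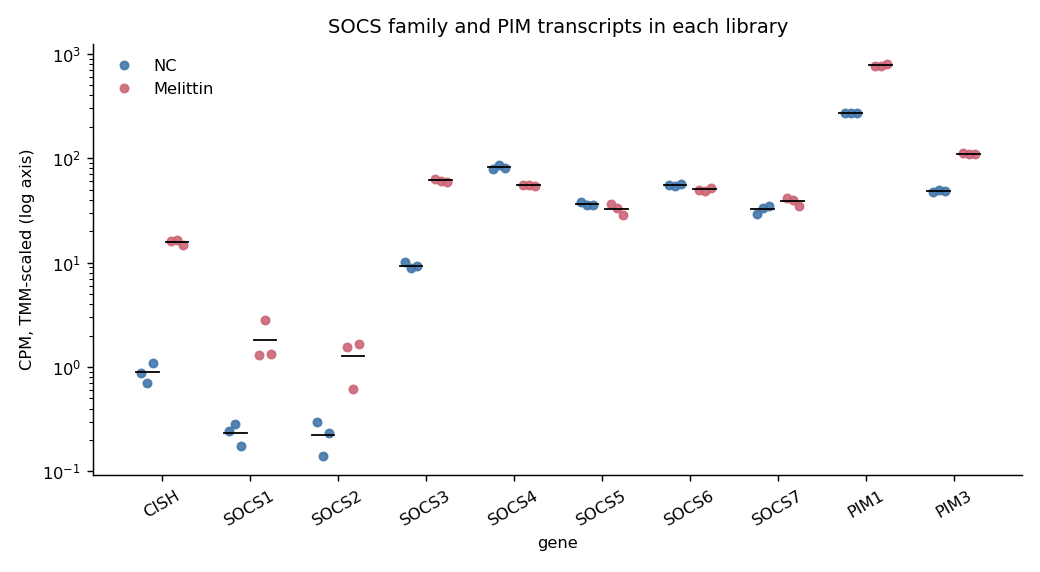
TMM-scaled CPM (log axis) of each of the 10 members in the 3 NC and 3 melittin libraries; each point is a library and each bar the group mean. CISH, SOCS1, SOCS2, SOCS3, PIM1 and PIM3 show groups that lie apart with melittin higher, SOCS7 does so narrowly, SOCS4 and SOCS6 lie apart with melittin lower, and SOCS5 overlaps.

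CISH had the largest change of the members. It encodes CIS, which binds phosphorylated receptors of the STAT5 type and was the first of the family to be described. The counts of CISH were 18, 15 and 19 in NC replicates 1 to 3, against 249, 296 and 219 in melittin replicates 1 to 3. The groups were far apart, with every melittin library above every NC library. Its mean CPM was 0.897 ± 0.196 in NC and 15.8 ± 0.966 with melittin (SD, n = 3 each), 17.7-fold higher (log2 fold change 4.15, SE 0.164, edgeR adjusted p = 1.29e-18). By log2 fold change CISH ranked 28 from the top of the 12029 tested genes. The gene lies on chromosome 3 from 50606489 to 50611774, minus strand (GRCh38), and shares 255 bases with MAPKAPK3 on the opposite strand. The strand setting of the counting is not given in the sources used here, so reads in that stretch cannot be assigned with certainty. MAPKAPK3, a kinase downstream of p38, went the other way, from 135.5 ± 2.45 to 92.4 ± 3.99 CPM.

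SOCS2, the closest relative of CISH and best known for restraining growth hormone signalling, was at the edge of detection. It had 6, 3 and 4 counts in NC replicates 1 to 3, against 24, 11 and 25 counts in melittin replicates 1 to 3. No melittin library was as low as an NC library, but the filter on low counts was applied before TMM scaling, and on that unscaled basis melittin replicate 2 fell just short of the level of 0.566 unscaled CPM, so SOCS2 was not tested. The gene lies on chromosome 12 from 93569814 to 93583487, plus strand. Its TMM-scaled level was 0.223 ± 0.0773 CPM in NC and 1.28 ± 0.584 CPM with melittin (SD, n = 3 each). Without the filter on low counts its log2 fold change was 2.46 (edgeR adjusted p = 3.35e-06), in a setting where 59.9% of genes passed. It was tested in 8 of the 14 alternative settings and passed in each of these 8, with log2 fold changes from 2.21 to 2.83 and adjusted p from 3.35e-06 to 0.000843. Apart from DESeq2 and the fit without the filter, these were fits that left out a library. There SOCS2 came through the filter only by its melittin libraries, so a difference was required of it.

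SOCS3, the brake on gp130 receptors, was the most abundant of the inducible SOCS transcripts in both groups. Its CPM values were 10.04, 8.81 and 9.25 in NC replicates 1 to 3, against 63.3, 61.0 and 59.7 in melittin replicates 1 to 3. The libraries of each group lay close together and the groups did not overlap. The underlying counts were 160 to 204 per NC library and 890 to 1096 per melittin library. Its log2 fold change was 2.71 (SE 0.0697, edgeR adjusted p = 7.11e-23) and kept within 2.48 to 2.76 over the 14 alternatives. SOCS3 lies on chromosome 17 from 78356778 to 78360077, minus strand, and overlaps no other gene of the table.

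SOCS1, the strongest inhibitor of JAKs in the family, was rare in these cells. It had 5, 6 and 3 counts in NC replicates 1 to 3, against 20, 51 and 20 in melittin replicates 1 to 3. Every melittin library was above every NC library, and melittin replicate 2 stood well above the other melittin libraries. Mean CPM was 0.234 ± 0.0556 in NC and 1.83 ± 0.877 with melittin, 7.65-fold higher (log2 fold change 2.94, SE 0.434, edgeR adjusted p = 8.4e-07). Without melittin replicate 2 the log2 fold change was 2.44. That library was the lowest of its group for SOCS2. SOCS1, on chromosome 16 from 11254417 to 11256204, minus strand, sits wholly within the span of RMI2 on the opposite strand. RMI2 had 20 to 35 counts per library and its groups overlapped.

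Changes were smaller in SOCS4, SOCS5, SOCS6 and SOCS7, which have longer N-terminal parts and are usually described as less dependent on cytokines. SOCS4 (chromosome 14, 55027230 to 55049489, plus strand), linked to EGF receptor turnover, had the clearest change. It had 79.6, 85.6 and 80.4 CPM in NC replicates 1 to 3, against 55.8, 55.2 and 54.0 CPM in melittin replicates 1 to 3. The groups lay apart, and the fall of 1.49-fold had a log2 fold change of −0.58 (SE 0.045, edgeR adjusted p = 4.86e-12). Tested by edgeR against a fold change of 1.5 instead of none, where 29.1% of genes passed (14.6% higher, 14.4% lower), it did not pass (adjusted p = 0.743). SOCS6 (chromosome 18, 70289045 to 70330199, plus strand) is a binding partner of the receptor kinases KIT and FLT3. It had 55.6, 54.6 and 57.3 CPM in the NC libraries and 49.8, 48.7 and 52.3 CPM in the melittin libraries. It fell from 55.8 ± 1.36 to 50.3 ± 1.88 CPM (log2 fold change −0.15, edgeR adjusted p = 0.00756), and its groups did not overlap.

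SOCS5 (chromosome 2, 46698952 to 46780245, plus strand), described as a brake on interleukin-4 and EGF receptors, was on the border of the test. It had 38.3, 35.9 and 35.9 CPM in NC replicates 1 to 3, against 36.5, 33.7 and 28.7 CPM in melittin replicates 1 to 3. Melittin replicate 1 lay inside the NC range, and the low mean came mostly from melittin replicate 3. The log2 fold change of −0.15 had an adjusted p of 0.0477 by edgeR. The call ended in 8 of 14 alternatives, with DESeq2 (adjusted p = 0.127, 58.4% of genes passing) and without melittin replicate 3 (−0.07, adjusted p = 0.36) among them, and adjusted p ran from 1.5e-05 to 1 over all 14. It also ended without NC replicate 1 (adjusted p = 0.16), NC replicate 2 (0.0513), NC replicate 3 (0.0517) or melittin replicate 2 (0.0586).

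SOCS7 (chromosome 17, 38351844 to 38405593, plus strand), which binds the adaptor NCK and insulin receptor substrates, had 29.4, 33.2 and 34.8 CPM in NC replicates 1 to 3, against 41.9, 39.6 and 34.99 CPM in melittin replicates 1 to 3. Melittin replicate 3 was barely above NC replicate 3. The log2 fold change was 0.26 (SE 0.0701, edgeR adjusted p = 0.00144). Under scaling by totals alone it was 0.03 (edgeR adjusted p = 0.69), which is 0.27 above the median of all genes under that scaling.

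**Figure D2:**
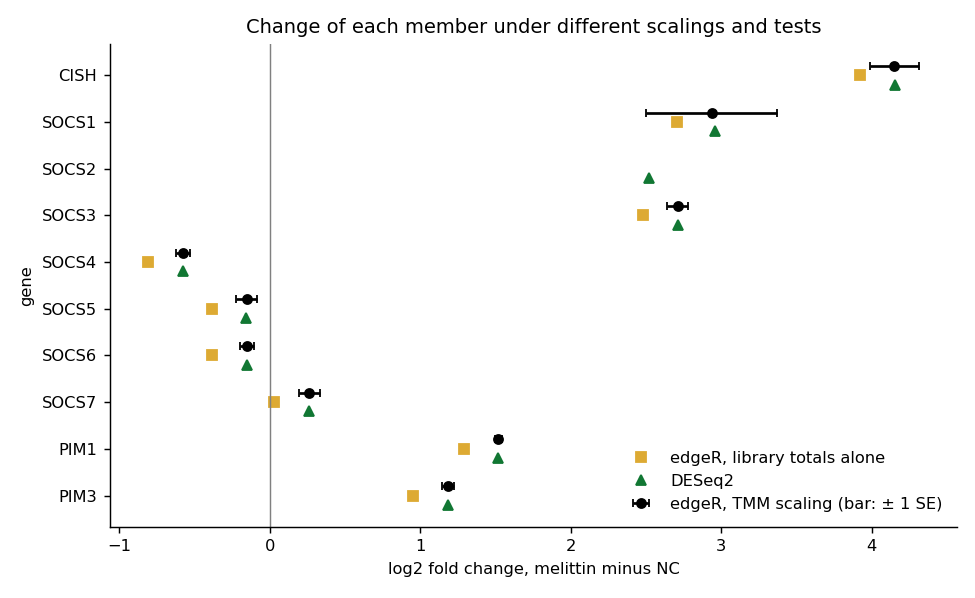
Log2 fold change of each member, melittin minus NC, by edgeR with TMM scaling (black circles, bars of 1 SE on either side), by edgeR with library totals alone (squares) and by DESeq2 (triangles). CISH, SOCS1, SOCS3, PIM1 and PIM3 are at 0.95 or more in every version shown, SOCS4, SOCS5 and SOCS6 stay below 0, and SOCS7 moves to 0.03 with totals alone; SOCS2 was tested only by DESeq2 among these.

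Levels of different genes were compared on FPKM, the deposited values scaled to gene length and library total, which are not TMM-scaled. PIM1 was the highest of the 10 in both groups, at 97.7 ± 0.253 FPKM in NC and 238.6 ± 6.29 FPKM with melittin (SD, n = 3 each). PIM3 came next, at 23.9 ± 0.647 and 46.3 ± 0.857 FPKM. In NC these were followed by SOCS4 (12.6 ± 0.506), SOCS6 (10.3 ± 0.242), SOCS5 (5.31 ± 0.205), SOCS7 (3.9 ± 0.334) and SOCS3 (3.71 ± 0.248). SOCS7 and SOCS3 overlapped in their ranges. CISH (0.192 ± 0.0418) and SOCS1 (0.142 ± 0.0338) also overlapped, and SOCS2 was last at 0.0372 ± 0.0129 FPKM. With melittin the order changed at SOCS3, which moved from rank 7 to rank 3 at 20.7 ± 0.678 FPKM. There SOCS6 (7.94 ± 0.296) was above SOCS4 (7.2 ± 0.139), SOCS5 (4.06 ± 0.496) and SOCS7 (3.98 ± 0.369) overlapped, and CISH reached 2.88 ± 0.178 FPKM. SOCS1 (0.942 ± 0.45) and SOCS2 (0.183 ± 0.0834) remained the lowest.

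The make-up of the SOCS family differed between the groups. SOCS4 to SOCS7 together held 88.7 ± 0.797% of the summed FPKM of the 8 SOCS genes in NC and 48.4 ± 0.438% with melittin. SOCS3 had 11.05, 9.61 and 10.1% in NC replicates 1 to 3, against 43.4, 42.6 and 43.6% in melittin replicates 1 to 3. The share of CISH was 0.53 ± 0.115% in NC and 6.01 ± 0.214% with melittin. These shares do not depend on library scaling, and those of SOCS3 and CISH were higher in all 3 melittin libraries than in any NC library. The summed FPKM of the family was 36.2 ± 0.198 in NC and 47.9 ± 1.62 with melittin.

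**Figure D3:**
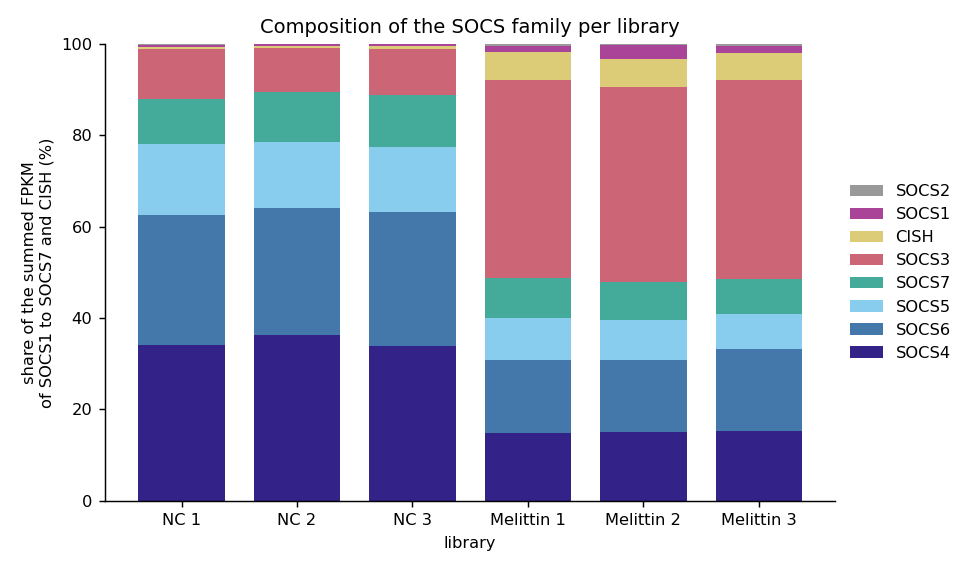
Share of the summed FPKM of SOCS1 to SOCS7 and CISH (percent, stacked to 100) that each gene takes, 1 bar per library. SOCS4 to SOCS7 take most of each NC bar (88.7% on average) and less of each melittin bar (48.4%), in which SOCS3 takes 43.2%.

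Ratios of FPKM within a library give a comparison between members that is free of library scaling; 4 were computed, and with 3 libraries against 3 the smallest exact two-sided permutation p is 0.1. SOCS3 relative to SOCS4 to SOCS7 summed was 0.126, 0.107 and 0.113 in NC replicates 1 to 3, against 0.891, 0.89 and 0.896 in melittin replicates 1 to 3. These groups were far apart (exact permutation p = 0.1, 0.133 adjusted over the 4 ratios). PIM1 relative to PIM3 was 4.09 ± 0.121 in NC and 5.15 ± 0.172 with melittin, without overlap (exact permutation p = 0.1, adjusted 0.133). PIM1 thus rose more than PIM3 in these libraries, but a test whose smallest p is 0.1 cannot decide whether the rise was unequal. CISH relative to SOCS2 was 5.44 ± 1.4 in NC and 19.7 ± 12.9 with melittin (exact permutation p = 0.1, adjusted 0.133), a wide spread that rests on the 11 to 25 counts of SOCS2 per melittin library. Without melittin replicate 2 the log2 difference of this ratio went from 1.70 to 1.20. SOCS3 relative to SOCS1 overlapped between the groups, at 27.3 ± 7.27 and 25.0 ± 9.57 (exact permutation p = 0.7, adjusted 0.7). Its log2 difference of −0.18 became 0.01 without NC replicate 3 and 0.19 without melittin replicate 2.

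Both PIM kinases rose with melittin. PIM1, on chromosome 6 from 37170152 to 37175428, plus strand, had 273.9, 272.9 and 273.1 CPM in NC replicates 1 to 3, against 773.7, 769.2 and 807.9 CPM in melittin replicates 1 to 3. The libraries within a group were close and the groups far apart, with a log2 fold change of 1.52 (SE 0.0256, edgeR adjusted p = 4.31e-27), or 2.87-fold. PIM3, on chromosome 22 from 49960768 to 49964072, plus strand, had 47.04 to 49.6 CPM in the NC libraries and 109.0 to 112.2 CPM in the melittin libraries. Its groups lay far apart, with means of 48.5 ± 1.32 and 110.3 ± 1.68 CPM, 2.27-fold higher with melittin (log2 fold change 1.19, SE 0.0417, adjusted p = 9.22e-20). The remaining kinase of the family, PIM2, is not among the 10 members and is on chromosome X. It went from 26.7 ± 0.567 to 61.2 ± 4.7 CPM, 2.28-fold, so all 3 PIM transcripts rose, by log2 fold changes of at least 0.95 in each of the 14 alternatives.

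The proteins that SOCS members need, and those they act on, were read from lists of other genes, each described by its counts beside the 38.1% of tested genes that rose and the 38.3% that fell. Of 8 SOCS box ligase partners 4 rose and 2 fell (median log2 fold change 0.20), and 2 rose and 4 fell with library totals alone (median −0.03). The elongins ELOB (40.0 ± 1.79 to 62.8 ± 1.76 CPM) and ELOC (117.7 ± 1.27 to 161.2 ± 7.32 CPM) rose, whereas the scaffold CUL5 fell from 63.2 ± 0.625 to 46.9 ± 1.2 CPM. NEDD8, the ubiquitin-like activator of cullins, rose by 0.60 on the log2 scale (edgeR adjusted p = 0.0299), but did not pass with totals alone (adjusted p = 0.171). Its level was low, at 1.68 ± 0.514 CPM in NC and 2.59 ± 0.291 CPM with melittin. NC replicate 2 (2.26 CPM) lay just under melittin replicate 2 (2.28 CPM). Of 14 tested other SOCS box proteins 10 rose and 3 fell (median 0.37), and 7 rose and 4 fell with totals alone. VHL, the subunit that recognises HIF1A, rose from 93.7 ± 1.98 to 158.4 ± 8.56 CPM and ASB3 by 0.73 on the log2 scale, while WSB2 (149.9 ± 5.82 to 85.6 ± 0.99 CPM) and RAB40B (2.81 ± 0.383 to 1.69 ± 0.41 CPM) fell.

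Other brakes on cytokine receptors moved in both directions. Of 13 tested, 4 rose and 5 fell (median −0.09), and 1 rose and 9 fell with totals alone (median −0.32). The phosphatase PTPRC (CD45) fell from 221.8 ± 3.57 to 84.1 ± 0.924 CPM, USP18, which restrains the type I interferon receptor, from 16.2 ± 0.813 to 5.95 ± 0.604 CPM, and PIAS2 had a log2 fold change of −0.44. The phosphatase PTPN6 (SHP-1) rose from 129.6 ± 2.55 to 169.6 ± 5.9 CPM. Among feedback inhibitors of other pathways 15 of 18 rose and 2 fell (median 0.67), and 13 rose and 3 fell with totals alone. IRAK3, a brake on Toll-like receptors, went from 29.9 ± 1.25 to 112.8 ± 1.31 CPM, and SMAD6, ZFP36 and the phosphatase DUSP5 had log2 fold changes of 1.78, 1.41 and 1.49.

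The tested ligands and receptors that signal through STAT3 and STAT5 were mostly higher with melittin. In the gp130 and interleukin-10 type list 9 of 12 rose and 1 fell (median 1.10), and 8 rose and 2 fell with totals alone. IL6 went from 0.421 ± 0.189 to 5.39 ± 0.967 CPM, OSM (oncostatin M) from 3.27 ± 0.111 to 12.6 ± 1.16 CPM and LIFR, a receptor chain for LIF, from 2.15 ± 0.175 to 6.46 ± 0.44 CPM. IL10 had 7 counts over the NC libraries and 176 over the melittin libraries, and it too passed the filter only through the latter. IL6 reached the level of that filter in 1 NC library and 3 melittin libraries, so it needed the latter to be tested. The gene that fell was IL6ST, which encodes gp130 itself (log2 fold change −0.91) and was named after its value was seen. In the STAT5 and STAT6 type list 14 of 18 tested genes rose and 0 fell (median 1.70), and 13 rose and 2 fell with totals alone. These counts are partly set by the filter on low counts: CSF2, CRLF2 and IL2RA passed it only through their melittin libraries, so a rise was required of them. IL7, with 42 counts over the NC libraries and 9 over the melittin libraries, did not pass it. Without the filter 13 of 23 rose and 1, IL7, fell (median 1.54). IL2RA had 0 counts in NC and 66 with melittin, and the median of the 18 was the same with IL2RA set to its lower bound of 3 NC counts. IL3RA, the interleukin-3 receptor chain, went from 17.04 ± 2.45 to 177.7 ± 13.9 CPM and CSF3 from 0.601 ± 0.174 to 39.1 ± 1.92 CPM. CSF2 had 12 counts over the NC libraries and 605 with melittin, and CRLF2, a receptor chain for TSLP, had 4 counts, all in NC replicate 2, and 697 with melittin.

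Interferon ligands were nearly absent, with IFNG, IFNA1, IFNA2 and IFNL1 at 0 counts and IFNB1 at 3 counts over the NC and 1 over the melittin libraries. Among the 4 tested interferon receptor chains IFNAR2 rose from 3.2 ± 0.535 to 9.57 ± 0.882 CPM, while IFNAR1, IFNGR1 and IFNGR2 fell by 0.39, 0.17 and 0.24 on the log2 scale. Of 10 tested JAK and STAT genes 4 rose and 5 fell (median −0.14; 4 and 6 with totals alone). STAT5A went from 21.0 ± 0.198 to 48.5 ± 1.65 CPM and STAT4 from 0.394 ± 0.153 to 3.38 ± 0.777 CPM. STAT4 reached the level of the filter on low counts in 1 NC library and 3 melittin libraries, so it needed the latter to be tested. In the same list JAK2 fell from 46.2 ± 0.688 to 25.2 ± 1.61 CPM.

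Of 15 genes that respond to STAT3 and STAT5, 13 rose and 2 fell (median 0.73), and 10 rose and 4 fell with totals alone. OSM and IL4R, both among the 13, are also counted in the lists of ligands and receptors above, so the lists are not separate. BCL6, a repressor, went from 321.2 ± 3.81 to 740.8 ± 18.7 CPM, HIF1A from 237.7 ± 6.63 to 583.0 ± 5.98 CPM and the cyclin CCND2, which passed the filter only through its melittin libraries, from 0.37 ± 0.0772 to 8.59 ± 0.285 CPM. CCND1 and VEGFA were the 2 that fell, both by 0.13.

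Of proteins that SOCS members bind outside the JAK and STAT group, 3 of 10 rose and 6 fell (median −0.36; 3 and 7 with totals alone). The leptin receptor LEPR, a known target of SOCS3, rose from 38.4 ± 0.977 to 85.7 ± 1.74 CPM. IGF1R, TIRAP and VAV1 fell by 0.92, 0.85 and 0.60 on the log2 scale. Of 16 PIM substrates 10 rose and 2 fell (median 0.24), and 7 rose and 4 fell with totals alone (median 0.01). The cell cycle inhibitors CDKN1A (1058 ± 9.95 to 1774 ± 57.1 CPM) and CDKN1B (23.6 ± 1.71 to 43.4 ± 3.25 CPM) and the kinase MARK3 (126.9 ± 1.98 to 203.1 ± 1.05 CPM) rose. The phosphatase CDC25A, which drives entry into S phase, fell from 6.04 ± 0.556 to 0.862 ± 0.122 CPM. These are transcript levels and carry no information on phosphorylation.

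**Figure D4:**
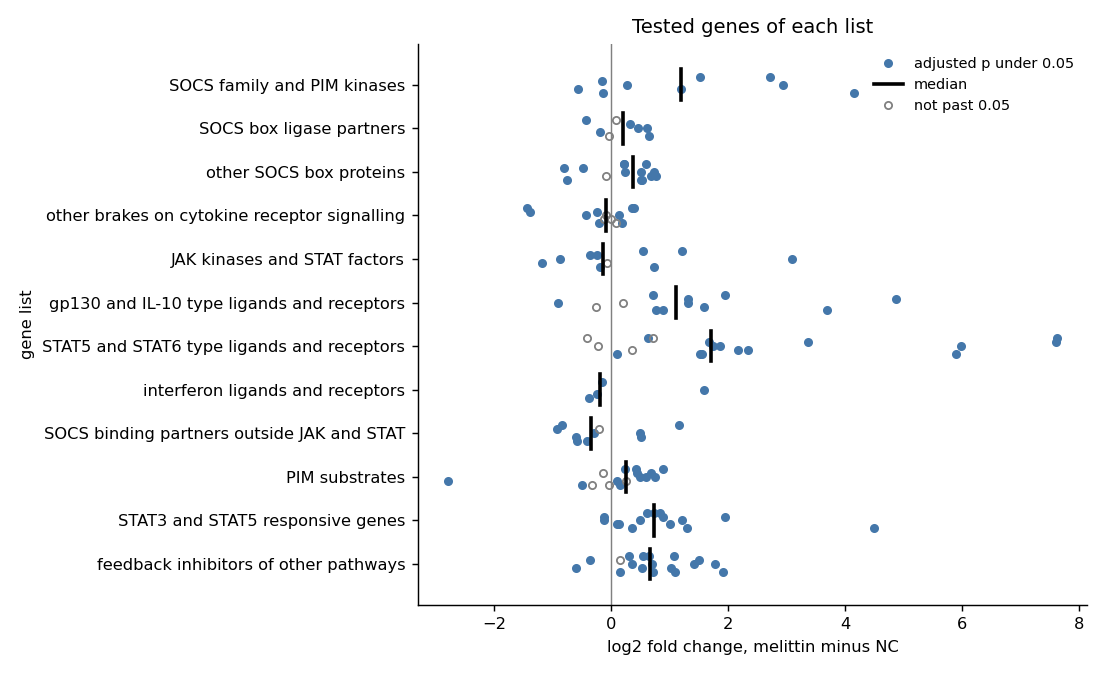
Log2 fold change (melittin minus NC) of every tested gene in the SOCS and PIM set and in 11 lists of related genes; filled points had an edgeR adjusted p under 0.05, open points did not, and the black bar is the median of the list. Medians run from −0.36 for SOCS binding partners to 1.70 for STAT5 and STAT6 type ligands and receptors.

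The chromosomal neighbours of the members moved in both directions. Of the 20 nearest tested genes without overlap, 1 on each side of each member, 8 rose and 7 fell, and 9 passed with at least a 2-fold change, where 19.5% of all tested genes did. Genes that overlap a member, MAPKAPK3 at CISH and RMI2 at SOCS1, were not counted as neighbours. PGS1, 18.6 kb from SOCS3, rose from 17.9 ± 0.132 to 41.3 ± 1.15 CPM, while BIRC5 on its other side (131.1 kb) fell from 4.62 ± 0.715 to 1.52 ± 0.519 CPM. With MAPKAPK3 set aside, CISH lay between HEMK1, which rose by 1.27 on the log2 scale, and DOCK3, with a log2 fold change of −1.10. PIM1 lay between FGD2 (log2 fold change 1.97) and TMEM217 (−1.74). The nearest tested gene above PIM3 was PANX2, 206.7 kb away, which went from 1.78 ± 0.154 to 22.4 ± 1.26 CPM. CRADD, next to SOCS2, and LITAF, next to SOCS1, had log2 fold changes of 2.21 and 1.13. For SOCS4, SOCS5, SOCS6 and SOCS7 no neighbour changed as much as 2-fold with a passing test.

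Genes with the most similar profile were sought for SOCS3 and PIM1 as the smallest root mean square difference of mean-centred log2 CPM over the 6 libraries, among 11361 other genes with a mean of at least 1 CPM. For SOCS3 these were the metalloproteinase MMP10 (difference 0.0519), BMP6 (0.0569) and the neutrophil chemokine CXCL5 (0.0724). For PIM1 they were CCNB1IP1 (0.0201), CDR2 (0.0261) and CPM, the gene of carboxypeptidase M (0.0285). With 2 groups such likeness is mostly a like fold change, and 83 genes lay within 0.1 of PIM1 and 6 within 0.1 of SOCS3. In the Gene Ontology terms of the table all 8 SOCS genes shared protein ubiquitination, and of the 475 other tested genes of that term 180 rose and 193 fell (median −0.02). SOCS1, SOCS2, SOCS3, SOCS5 and SOCS6 shared the term for receptor signalling via JAK-STAT, whose 27 other tested genes rose in 10 and fell in 12 cases (median −0.20).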

How the data were processed

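The authors deposited raw read counts per gene, made on GRCh38 per the submitters' processing notes, and FPKM values, which equal count over gene length and library total within a relative deviation of 2.23e-09. Which aligner, counter, strand setting and annotation were used is not given in the sources used here. NEBNext Ultra II RNA was the library kit, per the labels' protocols. Names and GRCh38 coordinates of genes come from the deposited table; the reference, being mouse, was not used.

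Counts were fitted over the whole table with edgeR 4.0.16 in R 4.3.3: filterByExpr (12029 genes kept), TMM factors, glmQLFit and glmQLFTest, Benjamini-Hochberg adjustment over all tested genes. The SE is the log2 fold change without its sign over the square root of F. Ratios of FPKM were compared with an exact permutation test (scipy 1.17.1). Each library counted as 1 replicate. Counts of replicates differed by more than sampling noise (chi-square 1.73 to 3.92 times its degrees of freedom), which does not show that the libraries came from separate cultures. Alternatives were other scalings, DESeq2 1.42.0, limma-voom (limma 3.58.1), other filters, a 1.5-fold null, a replicate block and leaving out each library. On simulated data with known changes the fit was tested first. Far fewer genes changed in that simulation than passed in the data, so it does not test the scaling where most genes move.

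The members, lists and tests were chosen with earlier results of these data known. Genes named are the 10 members, PIM2, up to 4 passing genes per list with the largest change and a mean of at least 1 CPM, neighbours with a passing 2-fold change, and the 3 most similar genes to SOCS3 and PIM1. Markers other than those the rule took, interferon ligands, IL2RA, IL7, IL6ST, CCND1, VEGFA, MAPKAPK3 and RMI2 were named after their values were seen. So were IL2, IL3, IL4, IL5, IL13, IL2RG and IL4R. Some genes of the lists, and 1 list, are not reported here.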

Additional observations from a re-analysis of the deposited data

How the results depend on the processing

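CISH, SOCS1, SOCS3, PIM1 and PIM3 kept their direction and their side of the threshold in all 14 alternatives. Against a fold change of 1.5 the counts went to 1761 genes higher and 1734 lower, and to 5 members higher and 0 lower. SOCS4, SOCS6 and SOCS7 did not pass there, and SOCS7 also missed with library totals alone. With those totals 3159 genes were higher and 6244 lower, a split of the calls that moved from near even. In the FPKM ratio of SOCS3 to SOCS1 the log2 difference ran from −0.40 to 0.19 when a library was left out, with its sign turned without NC replicate 3 (0.01) and without melittin replicate 2 (0.19); the cause was not tested. With the replicate number as a block 4513 genes were higher and 4537 lower, and 6 members rose and 3 fell, so no member's call changed. Same-numbered NC and melittin libraries had correlations of deviations from −0.0461 to 0.0178, and NC replicate 1 correlated best with melittin replicate 3. No pairing by number was seen, but correlations this near 0 cannot settle whether the samples were paired. Depth limits SOCS1 and SOCS2, with 14 and 13 counts over all NC libraries.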
